A study of Mus musculus with 15 samples.

Results

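The urea cycle genes were 7 genes chosen by their symbol: Nags, Cps1 and Otc, whose enzymes work in the mitochondrion, Slc25a15, the ornithine carrier of its inner membrane, and Ass1, Asl and Arg1, whose enzymes work in the cytosol. All 7 were found among the 16330 genes of the deposited table, and all 7 passed the filter on low values with the 13570 genes tested. Liver RNA of mice was sequenced in 15 libraries. The 4 groups were LbNOX after ethanol (3 libraries, M13 to M15), LbNOX after water (4 libraries, M6 to M9), luciferase after ethanol (3 libraries, M10 to M12) and luciferase after water (5 libraries, M1 to M5), with the liver taken 6 h after the gavage. LbNOX is a bacterial enzyme that oxidizes NADH to NAD+ with oxygen, and luciferase is a light-producing enzyme that stood as the control construct. The sample titles and the table's header name these constructs, whereas the design text speaks of wild type or ChREBP mice; the ChREBP genotype of the animals is not settled here. The vector, the promoter that drove the constructs, the strain and the age of the mice were not given in the sources used here. Whether each library is a different mouse is not stated in the labels, and p-values therefore reflect only how far these samples varied, which may be technical.

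The urea cycle turns ammonia, which is toxic, into urea for excretion, and the liver is the organ that runs it whole. Its first steps take place in the mitochondria, where carbamoyl phosphate is made from ammonia and joined to ornithine, and its later steps in the cytosol, where aspartate brings in a further nitrogen and urea is released. In liver the cycle is known to be strongest in the hepatocytes around the portal vein, and its genes are known to respond to glucagon, glucocorticoids and protein intake.

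Levels were compared between the genes as normalized counts per kb of the principal GENCODE vM21 transcript, as means over the 15 libraries. Ass1 (16151 per kb) and Arg1 (15829 per kb) stood highest, and their order held in 10 of 15 libraries. Cps1 followed at 8845 per kb, below Arg1 and above Asl in 15 of 15 libraries. Asl had 3259 per kb and Otc 2586 per kb, in that order in 11 of 15 libraries. Slc25a15 had 1759 per kb, below Otc in 14 of 15 libraries, and Nags, with a mean of 484 per kb, stood lowest in every library. The order of Ass1 and Arg1, and that of Asl and Otc, therefore changed between libraries, while the steps between Arg1 and Cps1, Cps1 and Asl, and Slc25a15 and Nags did not.

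**Figure D1:**
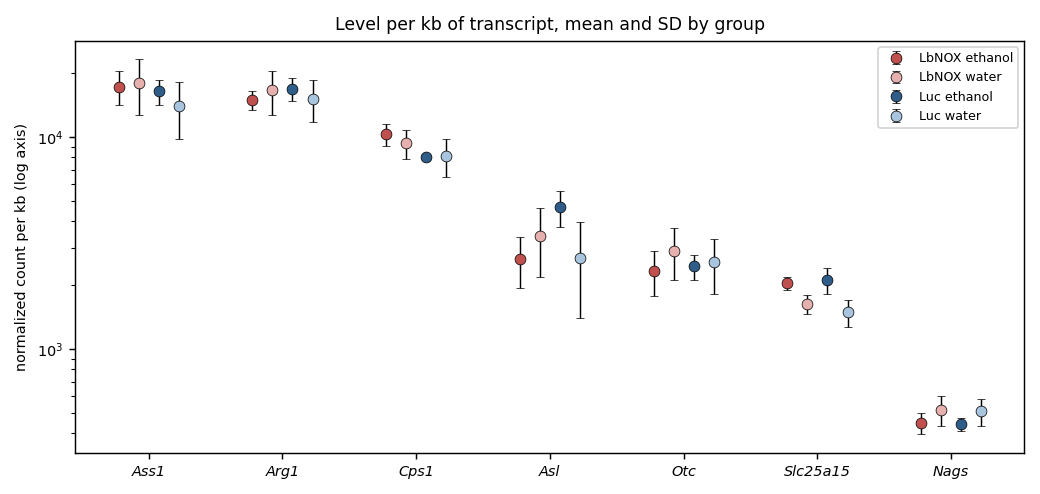
Normalized counts per kb of transcript (log axis) of the 7 urea cycle genes, ordered by their mean over the 15 libraries, with the mean and SD of each group as a point and whisker, the groups in the order LbNOX ethanol, LbNOX water, luciferase ethanol and luciferase water (n = 3, 4, 3 and 5). Ass1 and Arg1 overlap near the top (means 16151 and 15829 per kb) and Nags lies apart at the bottom (484 per kb).

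Slc25a15 is the gene that separated the ethanol from the water libraries. It encodes the carrier that takes ornithine into the mitochondrion and brings citrulline out, and it lies on the minus strand of chromosome 8 at 22375551 to 22398597 (GRCm38), with 7 exons and 3430 bases in its principal transcript. In LbNOX livers its normalized counts were 7388, 7188 and 6445 after ethanol, against 5878, 6222, 5022 and 5144 after water. In luciferase livers they were 6881, 8414 and 6419.9 after ethanol, against 5826, 5827, 4047, 4767 and 5018 after water. The lowest ethanol library of the 6 (6419.9) was above the highest water library of the 9 (6222). Of the 13570 genes tested, 0.56% had all ethanol libraries above all water libraries in this way, and Slc25a15 was the only urea cycle gene among them; none of the 7 had all ethanol libraries below, where 0.346% of the genes tested did.

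In luciferase livers Slc25a15 averaged 7238 ± 1044 normalized counts after ethanol and 5097 ± 755 after water (SD, n = 3 and 5), a log2 difference of 0.51 (SE 0.14, 95% interval 0.21 to 0.81, limma adjusted p = 0.0401). It was the 1 urea cycle gene of 7 that was called. Of all genes tested, 7.75% were called in this comparison, and 4.62% were called as higher. All luciferase ethanol libraries were above all luciferase water libraries for Slc25a15, as for 8.32% of all genes. On recovered reads the adjusted p was 0.0394 (edgeR) and 0.00455 (DESeq2). The call was close to the threshold: it ended without M3 (log2 difference 0.43, adjusted p = 0.0688), M4 (0.49, adjusted p = 0.0608), M5 (0.51, adjusted p = 0.0623), M6 (0.51, adjusted p = 0.0559), M10 (0.54, adjusted p = 0.107), M11 (0.40, adjusted p = 0.180), M12 (0.59, adjusted p = 0.0577), M13 (0.51, adjusted p = 0.0526) or M14 (0.51, adjusted p = 0.0541). It also ended with library-sum scaling (0.43, limma adjusted p = 0.0831) and without both the variance trend and robust variances (0.51, limma adjusted p = 0.0503). In a fit of the luciferase groups alone it ended too (0.51, limma adjusted p = 0.123). The difference was above 0 in each of these.

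In LbNOX livers Slc25a15 averaged 7007 ± 497 normalized counts after ethanol and 5567 ± 578 after water (SD, n = 3 and 4), a log2 difference of 0.34 (SE 0.15, 95% interval 0.02 to 0.65, limma adjusted p = 0.410). All ethanol libraries were above all water libraries, as for 5.42% of all genes in this comparison, but the difference was not called. By limma 1 gene of 13570 was called there (0.00737%), 1571 had an unadjusted p below 0.05, and the count was 1 by edgeR and 282 by DESeq2. The ethanol effect on Slc25a15 in LbNOX livers minus that in luciferase livers was -0.17 (SE 0.20, 95% interval -0.61 to 0.26, limma adjusted p = 0.721), so a difference between the constructs was not shown and the interval allows one of either sign. Averaged over the constructs, a contrast added after the values were seen, the log2 difference of ethanol against water was 0.42 (SE 0.10, 95% interval 0.20 to 0.64, limma adjusted p = 0.0299), or 1.34-fold, where 5.2% of all genes were called and 2.98% were called as higher. That call ended without M6 (adjusted p = 0.0507), M9 (adjusted p = 0.0530), M10 (adjusted p = 0.0619), M11 (adjusted p = 0.0697), M13 (adjusted p = 0.0841) or M14 (adjusted p = 0.0603), with differences of 0.37 to 0.44. The other 6 urea cycle genes were not called in the averaged contrast, with log2 differences between -0.19 (Nags) and 0.31 (Asl).

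**Figure D2:**
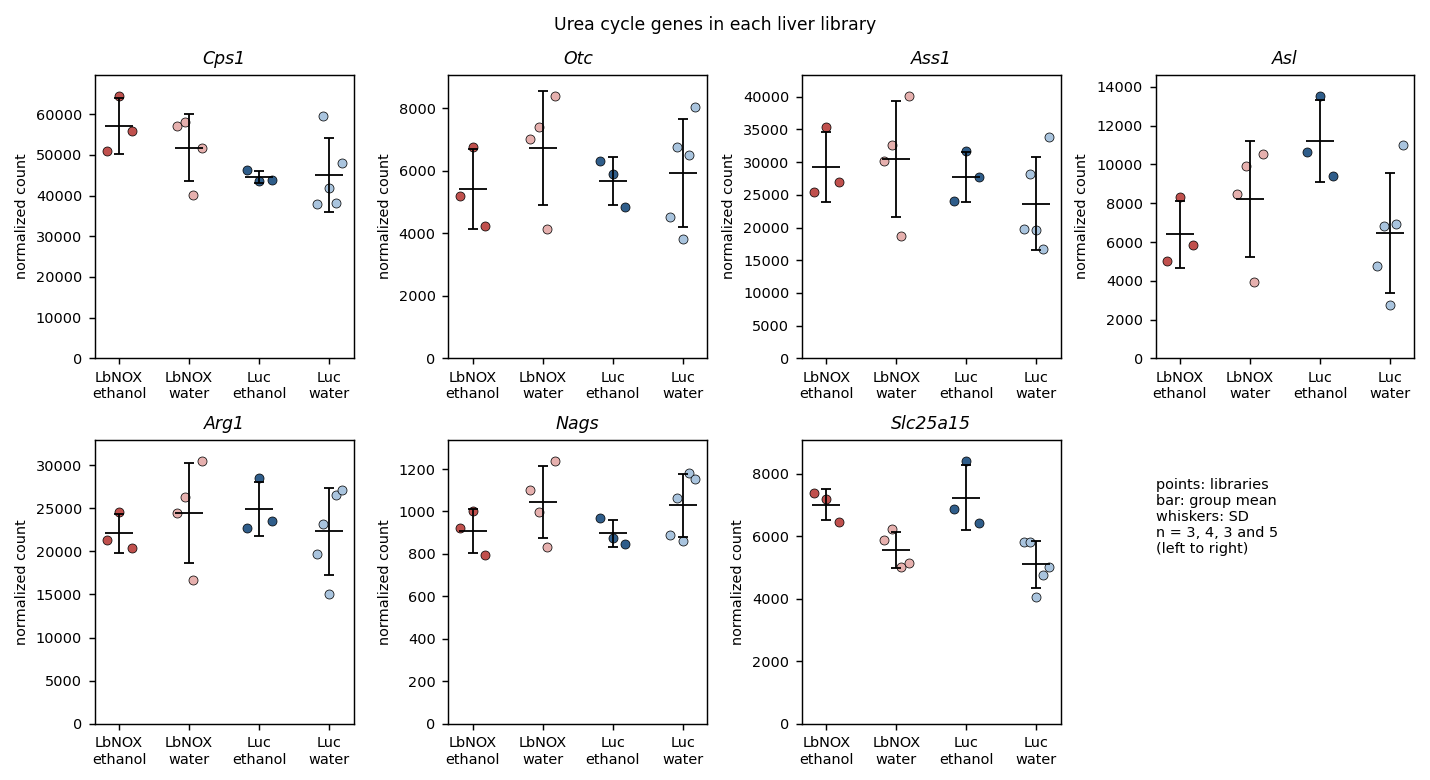
Normalized counts of the 7 urea cycle genes in each of the 15 libraries (1 panel a gene, each axis starting at 0), with 1 point a library and the group mean and SD as a bar and whiskers. In the Slc25a15 panel the 6 ethanol libraries (6419.9 to 8414) lie above the 9 water libraries (4047 to 6222), and in the other panels the ethanol and water libraries overlap in both constructs.

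Promoters of 300 bases (250 before and 50 after a start site, RefSeq, GRCm38.p6) were at hand for Slc25a15, which has a pair of start sites there, and for Otc, Nags and Ass1. They are shown for Slc25a15, the member called after ethanol in luciferase livers, and for Otc and Nags, members of the mitochondrial steps that were not called; no test set Slc25a15 against these genes. Capitals mark the letters CACGTG (the E box, which occurs in the elements that ChREBP binds), GGGCGG (the GC box) and TGACG (the core of the cAMP response element), on either strand; TTGCNNAA (C/EBP core) and CCAAT were searched as well. The first Slc25a15 sequence is chr8:22398228-22398527, the second is chr8:22398572-22398871 (both on the minus strand), Otc is chrX:10252055-10252354 and Nags is chr11:102145263-102145562 (both on the plus strand).
Slc25a15, first start site: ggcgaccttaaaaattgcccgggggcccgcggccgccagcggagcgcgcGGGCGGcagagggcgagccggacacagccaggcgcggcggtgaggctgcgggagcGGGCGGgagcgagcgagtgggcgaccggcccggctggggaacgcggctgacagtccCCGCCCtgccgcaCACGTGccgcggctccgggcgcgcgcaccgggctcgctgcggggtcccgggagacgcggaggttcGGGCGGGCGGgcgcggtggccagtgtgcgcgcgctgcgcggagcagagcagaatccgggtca
Slc25a15, second start site: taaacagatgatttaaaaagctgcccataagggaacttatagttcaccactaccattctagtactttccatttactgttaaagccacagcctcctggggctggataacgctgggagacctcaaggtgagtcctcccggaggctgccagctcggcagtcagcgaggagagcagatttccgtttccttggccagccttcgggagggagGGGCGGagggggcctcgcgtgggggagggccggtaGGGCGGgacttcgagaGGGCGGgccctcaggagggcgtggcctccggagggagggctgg
Otc: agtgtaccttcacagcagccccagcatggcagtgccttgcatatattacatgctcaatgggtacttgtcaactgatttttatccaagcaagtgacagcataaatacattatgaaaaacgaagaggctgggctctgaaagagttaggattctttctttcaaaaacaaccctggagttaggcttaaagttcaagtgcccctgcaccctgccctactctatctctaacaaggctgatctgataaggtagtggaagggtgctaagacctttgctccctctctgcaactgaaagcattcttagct
Nags: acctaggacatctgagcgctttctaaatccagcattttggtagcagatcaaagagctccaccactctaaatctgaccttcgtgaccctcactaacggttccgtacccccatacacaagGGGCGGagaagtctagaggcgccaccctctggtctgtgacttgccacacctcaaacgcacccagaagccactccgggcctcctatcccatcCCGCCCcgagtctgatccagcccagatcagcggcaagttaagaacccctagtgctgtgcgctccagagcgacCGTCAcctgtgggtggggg

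The first Slc25a15 promoter held CACGTG at position -77 from the start site and GGGCGG at -201, -146, -90, -12 and -8, of which the last pair overlap. The second held no CACGTG and GGGCGG at -44, -9 and 8. Among 32851 promoters of this length, 7.15% held CACGTG and 35.7% held GGGCGG. The first Slc25a15 promoter was 79% G and C, against a median of 52.7% over all promoters, and the second was 60.7%. In Nags GGGCGG began at -132 and -41 and TGACG at 32, and 20.8% of all promoters held TGACG. Otc, at 44.3% G and C, held none of the 5 motifs as searched. CCAAT stood in 37.4% of all promoters, and TTGCNNAA in 5.8% on the only strand searched for it. Ass1, which was not called in any comparison, held CACGTG at -36 and GGGCGG at -63 in a promoter of 74% G and C (chr2:31470020-31470319, plus strand, not printed), so neither the E box nor a high G and C share was particular to Slc25a15. These are matches of letters and say nothing of what binds there.

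Nags makes N-acetylglutamate, the activator that carbamoyl phosphate synthetase needs. It is on the plus strand of chromosome 11 at 102145513 to 102149477, with 7 exons. In LbNOX livers it had 924, 1001 and 797 normalized counts after ethanol, against 1103, 998, 835 and 1238.5 after water. In luciferase livers it had 968, 875 and 849 after ethanol, against 889.5, 1065, 859, 1181 and 1153 after water. The ethanol libraries lay within or below the range of the water libraries in both constructs, and the groups overlapped. The log2 difference of ethanol against water was -0.19 in each construct (SE 0.15 in both; limma adjusted p = 0.641 in LbNOX and 0.516 in luciferase livers), and its 95% interval in luciferase livers was -0.50 to 0.12.

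Cps1 encodes carbamoyl phosphate synthetase, the entry point of ammonia and a very abundant protein of liver mitochondria. It is on the plus strand of chromosome 1 at 67123026 to 67231259, with 38 exons. In LbNOX livers it had 50915, 64543 and 55791 normalized counts after ethanol, against 57081, 58132, 40196 and 51609 after water. In luciferase livers it had 46164, 43587 and 43785 after ethanol, against 37839, 59459, 41960, 38102 and 47876 after water. After ethanol every LbNOX library was above every luciferase library (lowest 50915, against a highest of 46164), whereas ethanol and water libraries overlapped in both constructs. Groups that stood apart upward after ethanol were common, at 14.1% of all genes. The log2 difference of LbNOX against luciferase after ethanol was 0.35 (SE 0.19, 95% interval -0.06 to 0.77, limma adjusted p = 0.319). Ethanol against water gave 0.15 (SE 0.18, adjusted p = 0.784) in LbNOX and 0.00 (SE 0.17, adjusted p = 0.995) in luciferase livers by limma.

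Otc encodes ornithine transcarbamylase, which joins carbamoyl phosphate to ornithine. It is on the plus strand of chromosome X at 10252305 to 10321024, with 10 exons. The LbNOX livers had 5211, 6775 and 4236 normalized counts after ethanol, against 7017, 7403, 4155 and 8412 after water. The luciferase livers had 6309, 5894 and 4839.5 after ethanol, against 4526, 6777, 3824, 6512 and 8046 after water. The groups overlapped in both constructs, and the highest and lowest libraries of the gene, M9 and M3, were both given water. The log2 difference of ethanol against water was -0.30 in LbNOX (SE 0.28, limma adjusted p = 0.702) and -0.02 in luciferase livers (SE 0.26, limma adjusted p = 0.982).

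Slc25a15 and Otc act on the same ornithine, and the ratio of their normalized counts was followed as a description. It ran between 1.06 and 1.52 after ethanol and between 0.612 and 1.21 after water in LbNOX livers. In luciferase livers it ran between 1.09 and 1.43 after ethanol and between 0.624 and 1.29 after water. Ethanol and water libraries overlapped in both constructs.

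Asl varied most of the 7. It encodes argininosuccinate lyase, which splits argininosuccinate into arginine and fumarate, and it is on the minus strand of chromosome 5 at 130011258 to 130029247, with 16 exons. In LbNOX livers it had 5027, 8304 and 5837 normalized counts after ethanol, against 8480.3, 9898, 3958 and 10534 after water. In luciferase livers it had 10666.5, 13551 and 9417 after ethanol, against 4777, 6813, 2738 and 6931 in M1 to M4 and 11023 in M5 after water. The highest library (M11) was 4.95 times the lowest (M3), while this ratio was 1.55 to 2.41 for the other 6 genes. After ethanol all LbNOX libraries (highest 8304) were below all luciferase libraries (lowest 9417), as for 15.4% of all genes; ethanol and water libraries overlapped in both constructs.

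In luciferase livers Asl averaged 11212 ± 2120 normalized counts after ethanol and 6456 ± 3076 after water (SD, n = 3 and 5), a log2 difference of 0.92 (SE 0.39, 95% interval 0.09 to 1.76) that was not called (limma adjusted p = 0.185). In LbNOX livers it averaged 6389 ± 1707 after ethanol and 8218 ± 2967 after water (SD, n = 3 and 4), a log2 difference of -0.30 (SE 0.41, limma adjusted p = 0.807). The difference between these ethanol effects was -1.22 (SE 0.56, 95% interval -2.43 to -0.02, limma adjusted p = 0.332), in a comparison in which 1.67% of all genes and none of the 7 were called. LbNOX against luciferase after ethanol gave -0.83 (SE 0.43, 95% interval -1.76 to 0.10, limma adjusted p = 0.294). Leaving out 1 library at a time kept the luciferase ethanol difference of Asl between 0.65 (without M3) and 1.15 (without M5), and the difference of effects between -1.54 (without M8) and -0.95 (without M3), uncalled throughout.

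Ass1 encodes argininosuccinate synthase, which joins citrulline and aspartate in the step before Asl. It is on the plus strand of chromosome 2 at 31470207 to 31520672, with 16 exons. In LbNOX livers it had 25461, 35292 and 26918 normalized counts after ethanol, against 30239.7, 32571, 18779.5 and 40174 after water. In luciferase livers it had 24013, 31666 and 27657 after ethanol, against 19769, 28141, 19699, 16667 and 33836 after water. The groups overlapped in every comparison. Ethanol against water gave a log2 difference of -0.02 (SE 0.27, limma adjusted p = 0.980) in LbNOX livers and of 0.27 (SE 0.26, limma adjusted p = 0.611) in luciferase livers. The ratio of Asl to Ass1 ran between 0.197 and 0.235 in LbNOX livers and between 0.340 and 0.444 in luciferase livers after ethanol. After water this ratio ran between 0.211 and 0.304 in LbNOX livers and between 0.139 and 0.416 in luciferase livers; the luciferase water range overlapped those of all other groups.

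Arg1 encodes arginase, which releases urea and returns ornithine. It is on the minus strand of chromosome 10 at 24915221 to 24927484, with 8 exons. Its normalized counts in LbNOX livers were 21340.1, 24629 and 20339 after ethanol, against 24476, 26306.5, 16652 and 30511.5 after water. Those in luciferase livers were 22703, 28513.5 and 23546 after ethanol, against 19736, 23212, 15010.5, 26548 and 27159 after water. All 4 groups overlapped. Ethanol against water gave a log2 difference of -0.12 (SE 0.23, limma adjusted p = 0.869) in LbNOX livers and of 0.18 (SE 0.22, limma adjusted p = 0.701) in luciferase livers.

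Across the cycle, ethanol against water gave log2 differences above 0 for 2 of 7 genes in LbNOX livers (median -0.12) and for 5 of 7 in luciferase livers (median 0.18), while the median of all genes tested was 0.00 in LbNOX and 0.01 in luciferase livers. After ethanol, LbNOX against luciferase gave values above 0 for 3 of 7 (median -0.04, all genes 0.00), and none was called where 6.06% of all genes were. LbNOX against luciferase after water gave values above 0 for 7 of 7, between 0.02 (Nags) and 0.40 (Asl), with a median of 0.19 against 0.01 for all genes; that of Nags was -0.01 with library-sum scaling, and that of Arg1 was -0.0035 without M3. None was called there: limma and edgeR called 0 genes of 13570 and DESeq2 18, 440 had an unadjusted p below 0.05 by limma, and none of the 7 was among those. Of all genes tested, 49.5% lay above 0 for ethanol in LbNOX livers and 50.6% for ethanol in luciferase livers. For LbNOX against luciferase, 50.3% did after ethanol and 51.8% after water. The 2 ethanol comparisons share no library, but each comparison of the constructs shares its libraries with them, so these counts are not independent. Nor are the 7 signs within a comparison, as the genes moved together by library within groups (median r of 21 pairs 0.64).

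**Figure D3:**
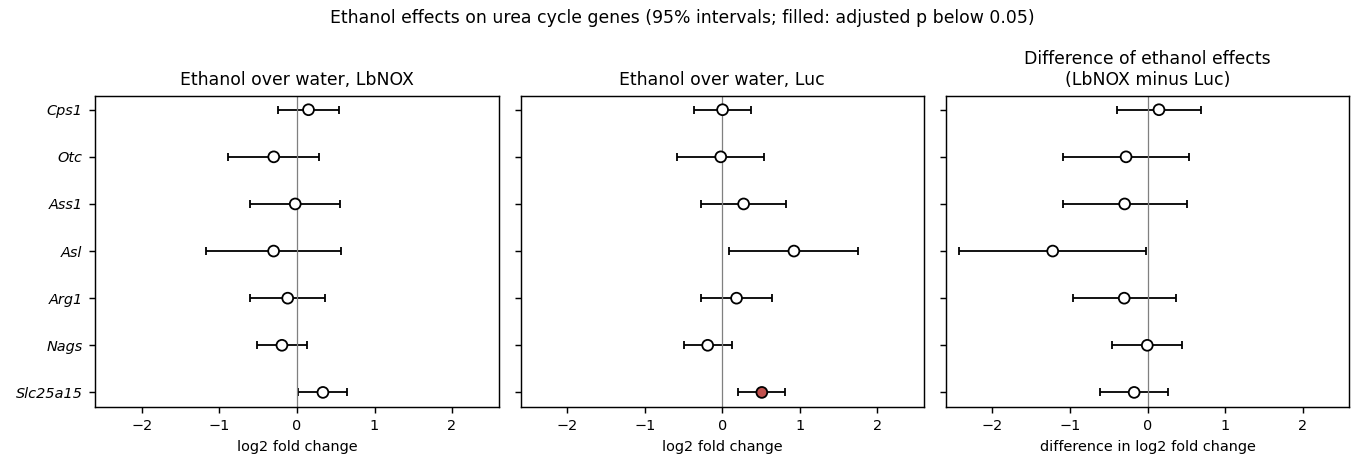
Log2 difference of ethanol against water for each urea cycle gene in LbNOX livers, in luciferase livers, and the difference of these effects (points with 95% intervals from limma, filled where the adjusted p was below 0.05). The Slc25a15 intervals lie above 0 in both constructs (0.02 to 0.65 in LbNOX and 0.21 to 0.81 in luciferase livers), and that of Asl lies above 0 in luciferase livers (0.09 to 1.76) and spans 0 in LbNOX livers.

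Within groups the 7 genes moved by library. After removing the group means, all 21 pairs of genes had a Pearson r above 0 over the 15 libraries, between 0.19 and 0.95 with a median of 0.64; the points share their libraries and their depth. Asl and Arg1 had r = 0.95 (rho = 0.91), Otc and Asl 0.93, Otc and Nags 0.93 and Otc and Arg1 0.91. Pairs with Slc25a15 were low, at 0.19 (Nags) to 0.48 (Asl), and so were those of Cps1 with Arg1 and Nags (0.45 each). Without M3 and M8 the r of the 21 pairs ran from -0.38 to 0.86 with a median of 0.48, and that of Slc25a15 with the other genes from -0.38 to 0.24. M8 was among the 3 lowest libraries for 6 of the 7 genes and M3 for 5 of 7; M5 was among the 3 highest for 5 and M9 for 4.

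Libraries M3 and M8 also stood apart over all genes, with a median distance from the libraries of their group of 0.347 and 0.329 on the log2 scale, against 0.169 to 0.300 for the other libraries. In these 2 libraries and in M15, markers of other liver cells were high: of 8 Kupffer cell and macrophage markers 7 were in the table, and their median level against the mean of all libraries was 0.98 in M3, 0.70 in M8 and 1.57 in M15 (log2), and that of 7 endothelial markers 0.82 in M3, 0.90 in M8 and 0.84 in M15. The summed Kupffer markers had 1118 to 2135 normalized counts in LbNOX ethanol, 1107 to 2505 in LbNOX water, 905 to 1228 in luciferase ethanol and 1125 to 2948 in luciferase water libraries, and no marker was at 0 throughout a group. The endothelial sum was 2191 to 3540.4, 1977 to 3958, 1893 to 2713 and 1873 to 3640.2 in the same order of groups. The 10 periportal hepatocyte markers had a median of -0.59 in M3 and -0.61 in M8, and were also low in M1 (-0.49) and M15 (-0.35). The 10 pericentral hepatocyte markers had a median of -0.56 in M3 and -0.12 in M8. The 8 hepatocyte markers summed to 881160 to 1007630 in LbNOX ethanol and 764489 to 1235730 in LbNOX water libraries. They summed to 914497 to 1151430 in luciferase ethanol and 898888 to 1090930 in luciferase water libraries, so hepatocyte markers were present throughout. Their median was 0.12 in M3, -0.45 in M8 and -0.01 in M15 (log2). The 9 genes of the mitochondrial genome, a list kept for RNA quality, had medians of -0.31 in M3, -0.14 in M8 and -0.40 in M15. In the other libraries these medians ran from -0.32 (M6) to 0.44 (M9). M13 stood apart in other lists: its 5 neutrophil markers summed to 664 normalized counts, against 109 to 313 in the other libraries (median 2.61 on the log2 scale), and its 5 red blood cell genes to 4856, against 8473 to 18965 in the others (median -1.19). Slc25a15 was highest in M13 among the LbNOX libraries, and without M13 its ethanol difference in LbNOX livers was 0.30 (limma adjusted p = 0.747). T and NK cell markers were highest in M3 (median 1.72). Among all marker lists the genes called, beside Etnppl, were Nkg7 of T and NK cells, which fell by 2.36 after ethanol in luciferase livers (limma adjusted p = 0.0486; not called without any of 12 libraries, adjusted p up to 0.205, nor with library-sum scaling, either other pseudocount, no variance trend, the luciferase groups alone, without M3 and M8, without M15 too or by edgeR, adjusted p up to 0.146), and the pericentral Lgr5, 1.41 higher in LbNOX than in luciferase livers after ethanol (limma adjusted p = 0.0213; not called without M10, M12, M13 or M14, adjusted p up to 0.0895, nor in a fit of the ethanol groups alone). Nkg7 was low, at 0 (M11) to 13.7 normalized counts in luciferase ethanol and 12.993 to 48.2 (M3) in luciferase water libraries. The summed T and NK cell markers had 36.3 to 53.6 normalized counts in luciferase ethanol and 56.3 to 221.9 in luciferase water libraries. Their medians were -0.93 to -0.34 and -0.35 to 1.72 (log2) in the same order, and so overlapped. Lgr5 was low as well, at 46 to 89 normalized counts in LbNOX ethanol and 23 to 26 in luciferase ethanol libraries. Its list did not stand apart: the median of the 10 pericentral markers was -0.24 to 0.28 in LbNOX ethanol libraries (log2). In luciferase ethanol libraries it was -0.14 to 0.19. The part of the cell markers in the levels of the urea cycle genes was not tested. In bulk liver fewer cells of a type and less RNA per cell cannot be told apart. Without M3, M8 and M15, an alternative chosen after seeing the data, Slc25a15 differed by 0.43 in luciferase livers (limma adjusted p = 0.0632) and by 0.35 in LbNOX livers (limma adjusted p = 0.345), and by 0.39 averaged over the constructs (limma adjusted p = 0.0462).

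**Figure D4:**
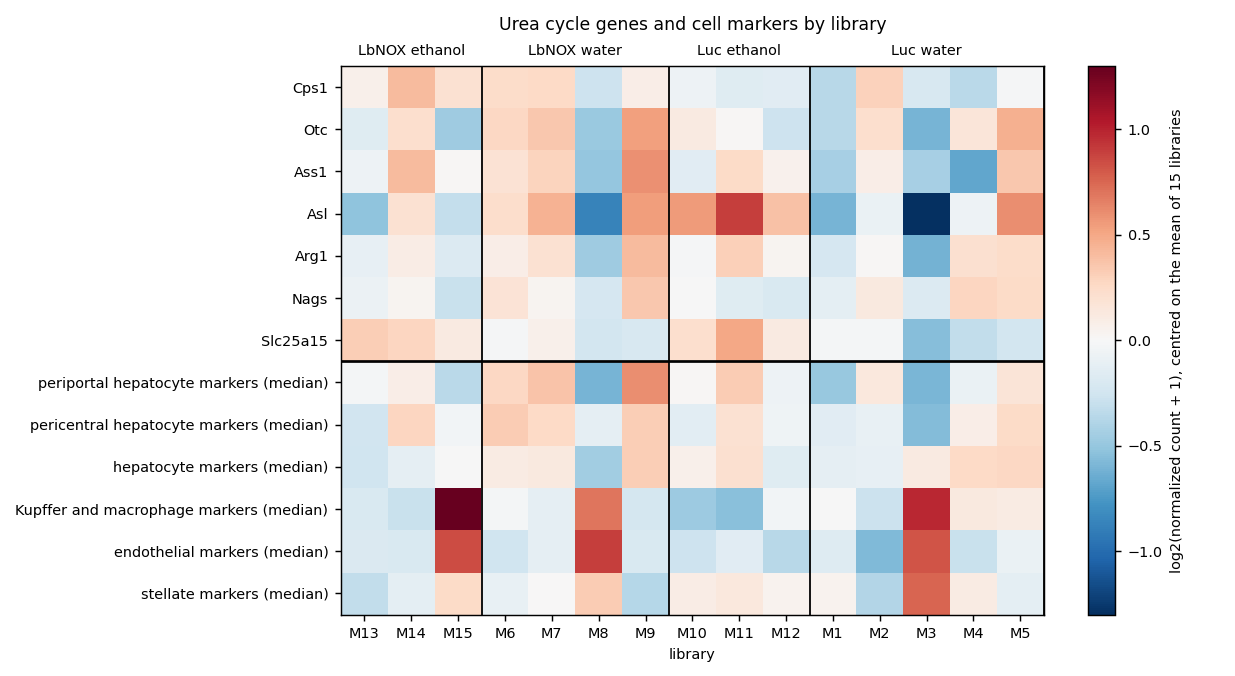
Level of each urea cycle gene in each library as the log2 difference from its mean over the 15 libraries, with the median level of 6 lists of cell markers below, and the libraries ordered by group; the colour scale ends below the highest marker value. M3 and M8 are low for most of the urea cycle genes and high for Kupffer and endothelial markers, as M15 is for those markers (Kupffer median 1.57).

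The sum of the 7 genes took 0.792% to 0.958% of the reads in LbNOX ethanol, 0.650% to 0.880% in LbNOX water, 0.707% to 0.791% in luciferase ethanol and 0.591% to 0.848% in luciferase water libraries. The ranges overlapped, and most of the sum was Cps1, Ass1 and Arg1. Recovered depth was 10.6 to 15.7 M reads in LbNOX ethanol, 13.7 to 20.6 in LbNOX water, 12.2 to 14.4 in luciferase ethanol and 14.5 to 23.7 in luciferase water libraries. Every luciferase ethanol library thus had fewer reads than every luciferase water library, and the part of depth in that comparison was not tested. The least abundant member, Nags, still had at least 797 normalized counts and 659 recovered reads in each library. Libraries of the same group correlated with r between 0.944 and 0.970 across all 16330 genes of the table and differed by more than sampling noise, with a chi-square of 26.5 to 143 per degree of freedom, so none was treated as 1 library deposited again; separate preparations of 1 liver would not be seen by this check.

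The genes outside the cycle whose log2 levels were most like those of its members were found over the 15 libraries among 9486 genes with a mean of 100 or more. Closest to the mean of the 7 were Ctsf (r = 0.958, rho = 0.932), Cisd1 (0.957, 0.911), Cyp4v3 (0.949, 0.921), Ndufaf1 (0.940, 0.946) and Ttc38 (0.936, 0.957). Closest to a single gene were 8430419L09Rik for Cps1 (r = 0.880), Ugt2a3 for Otc (0.960), the liver glutaminase Gls2 for Ass1 (0.928), the proline dehydrogenase Prodh for Asl (0.976), 1110032A03Rik for Arg1 (0.981), the alcohol dehydrogenase Adh1 for Nags (0.947) and the pyridoxal kinase Pdxk for Slc25a15 (0.908). The libraries share depth and group, and no test was made of these likenesses. Group means were not removed, and the r values were not computed without M3 and M8. M3 and M8 were the lowest libraries for Ctsf (241 and 277 normalized counts), Cisd1, Cyp4v3 and Ttc38, while M3 and M15 were lowest for Ndufaf1.

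**Figure D5:**
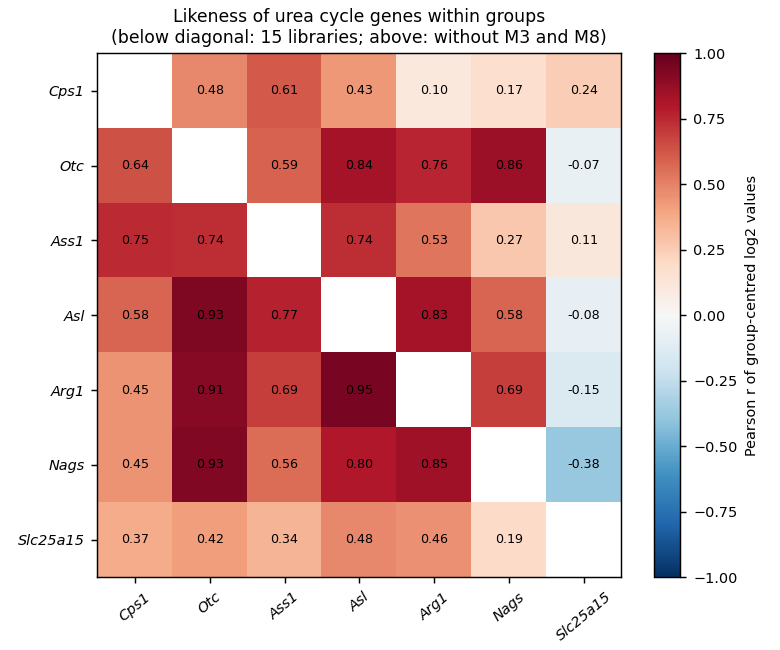
Pearson r between the urea cycle genes over the 15 libraries after removing group means (below the diagonal) and without M3 and M8 (above it). Below the diagonal the pairs among Otc, Asl, Arg1 and Nags are highest (up to 0.95). The pairs with Slc25a15 are low (0.19 to 0.48), as are those of Cps1 with Arg1 and Nags (0.45 each).

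Genes that feed or drain the cycle were read from 5 lists chosen with earlier results of these data known. In luciferase livers, where 7.75% of all genes were called after ethanol, the ammonia and glutamine list had 3 of 16 tested genes higher and 0 lower (median log2 difference 0.20), and the list of aspartate, glutamate and alanine transamination had 1 of 12 higher and 0 lower (median 0.28). The list of ornithine, arginine and proline metabolism had 0 of 19 higher and 1 lower (median 0.25), the regulators of the cycle 2 of 16 higher and 1 lower (median 0.22), and other amino acid breakdown 2 of 24 higher and 0 lower (median 0.16). The median of all genes was 0.01. In LbNOX livers no gene of these lists was called after ethanol, and the medians were 0.00 for ammonia and glutamine, 0.01 for transamination, -0.05 for ornithine, arginine and proline, -0.15 for the regulators and -0.34 for other amino acid breakdown. The smallest p-values there belonged to Amt (0.53, limma adjusted p = 0.150) and the mitochondrial carbonic anhydrase Car5b (0.96, limma adjusted p = 0.155).

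The genes called in luciferase livers had roles in glutamine uptake, aspartate supply, proline synthesis, amino acid breakdown and transcription. The glutamine carrier Slc38a2 had 4997 to 6372 normalized counts after ethanol and 2555 to 3491 after water, a log2 difference of 0.96 (limma adjusted p = 0.00733). Etnppl, an ethanolamine-phosphate enzyme, rose by 1.09 (adjusted p = 0.0137) and Amt, of the glycine cleavage system, by 0.58 (adjusted p = 0.0160) by limma. The aspartate aminotransferase Got1 had 4477 to 7283 normalized counts after ethanol and 1407 to 3403 after water, a log2 difference of 1.27 (limma adjusted p = 0.00831), against 0.71 (adjusted p = 0.341) in LbNOX livers. Slc38a2 and Got1 kept their calls under all alternatives run. In proline synthesis Pycrl fell by 0.52 (adjusted p = 0.0364), and of the regulators the factor Foxa2 fell by 0.93 (adjusted p = 0.00795) while Foxo1 rose by 0.64 (adjusted p = 0.0206) and the glucocorticoid-responsive Klf15 by 0.91 (adjusted p = 0.0374), all by limma. Of amino acid breakdown, tyrosine aminotransferase (Tat) rose by 1.10 (adjusted p = 0.0223) and homogentisate dioxygenase (Hgd) by 0.81 (adjusted p = 0.0260) by limma. The calls ended without M10 or M11 for Etnppl (adjusted p up to 0.0935), Foxo1 (up to 0.0908) and Tat (up to 0.110), without M10 for Amt (0.111) and Foxa2 (0.0507), without any of 7 libraries for Pycrl (up to 0.167), of 6 for Klf15 (up to 0.176) and of 4 for Hgd (up to 0.127). They also ended in a fit of the luciferase groups alone for Pycrl (limma adjusted p = 0.0830), Tat (0.0567) and Hgd (0.0806). That fit and library-sum scaling each ended the call of Amt (limma adjusted p up to 0.0730). The Klf15 call also ended without both the variance trend and robust variances (limma adjusted p = 0.0561). Without M3 and M8, 976 of all genes were called after ethanol in luciferase livers (615 higher and 361 lower), against 1052 with all libraries. In that setting the ammonia list had 3 genes higher and 0 lower and transamination 2 and 0. Ornithine, arginine and proline had 1 and 1, the regulators 2 and 1, and other amino acid breakdown 3 and 0.

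LbNOX against luciferase after water gave 0 calls in these lists, with medians of 0.18 for ammonia and glutamine, 0.20 for transamination, 0.06 for ornithine, arginine and proline, 0.08 for the regulators and 0.25 for other amino acid breakdown. After ethanol Slc38a2 was lower in LbNOX livers, with 2209 to 4227 normalized counts against 4997 to 6372 in luciferase livers (log2 difference -1.02, limma adjusted p = 0.0141), and so was the asparaginase Aspg (-1.04, limma adjusted p = 0.0434); the medians of the lists lay between -0.33 (other amino acid breakdown) and 0.04 (ammonia and glutamine). The Slc38a2 call ended without M10, M14 or M15 (adjusted p up to 0.0741) and that of Aspg without any of 8 libraries (adjusted p up to 0.185). Without M3, M8 and M15 neither was called, nor was Slc38a2 in a fit of the ethanol groups alone. Aspg was also not called without both the variance trend and robust variances. In these settings the limma adjusted p was up to 0.0743. The glucagon receptor Gcgr had -0.76 (limma adjusted p = 0.0543). For the difference of the ethanol effects none of the genes was called, with medians between -0.59 (other amino acid breakdown) and -0.09 (regulators); the smallest p-values were those of Etnppl (-1.29, adjusted p = 0.0856) and Aspg (-1.26, adjusted p = 0.109) by limma.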

How the data were processed

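The deposited table holds, for each gene and library, a signal: normalized counts in which the authors divided each library by a factor of its own, per the file headers and the values. Salmon 1.5.1, DESeq2 1.30.1 and the build mm10 are listed, with no role, per the submitters' processing notes; the library kit selected mRNA (KAPA), per the labels' protocols. All 244950 values came to whole reads within 0.001 after division by the factor read from each library's smallest step (100%), and depth was summed from these. The columns give a group and a library name but no replicate number. A gene was tested if 3 or more libraries had a value of at least 10. The test was limma 3.58.1 in R 4.3.3, with a pseudocount of 1 before taking log2, a variance trend and robust variances, in 1 fit of the 4 groups, with Benjamini-Hochberg adjustment over all genes and calls at an adjusted p below 0.05. Because the reads were recovered, edgeR 4.0.16 and DESeq2 1.42.0 were run on them as alternatives. Other alternatives were quantile normalization, library-sum scaling, pseudocounts of 0.5 and 10, other filters and fits of the compared groups alone. A further alternative dropped the variance trend and the robust variances together, and is given below as without the trend. Each library was also left out in turn, and M3 with M8. The averaged ethanol effect, the omission of M3, M8 and M15, and list counts without M3 and M8 were added after the values were seen. The members and gene lists were chosen with earlier results of these data known. Named were the members, the genes of each list called or, where none was, those of smallest p, and the genes most like the members.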

Additional observations from a re-analysis of the deposited data

Results flagged for a closer look

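In groups of 4 or 5 libraries, 3 values lay far from the others of their group, in 40 groups of 20 genes screened; chance alone would mark about 1 group in 20. All 3 were regulators of the cycle in LbNOX livers after water. Foxa2 was 630.0 normalized counts in M9, against 437 to 461 in the other libraries. Foxo1 was 698 in M8, against 1043 to 1109 in the others. Klf15 was 779 in M8, against 1561 to 1711 in the others.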

How the results depend on the processing

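No paired analysis was possible because the columns carry no replicate numbers. For the members, 892 of 964 values under the alternatives kept their direction and side of the threshold, 20 lost the threshold and 52 changed sign. Only called results could lose it, and those were Slc25a15 in luciferase livers and averaged over the constructs. The first lost it in 14 of 27 alternatives and the second in 6 of 26. Leaving out a library of a group not compared leaves the log2 difference as it was, so the 892 does not measure stability. For the called genes of the lists, 305 of 376 values kept both, 71 lost the threshold and 0 changed sign. With library-sum scaling the median of all genes was 0.14 for LbNOX against luciferase after ethanol (0.0036 without it) and 0.16 for the difference of effects (-0.0052 without it), and the share of calls higher in LbNOX after ethanol was 49.4% (313 higher, 320 lower), against 37% (304 higher, 518 lower). The cause of the changes below was not tested.

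For ethanol in luciferase livers 1 member was called, and 0 with library-sum scaling, without the trend, with only the groups compared, without M3 and M8, or without M3, M8 and M15 (0 to 1 with 1 library left out). Genes called there were 1052, and 611 with only the groups compared, 1621 by DESeq2 and 446 to 1217 with 1 library left out. Cps1 was -0.13 with quantile normalization, -0.076 with library-sum scaling, -0.017 without M3 and M8 or without M15 too, -0.018 by edgeR, -0.017 by DESeq2 and -0.054 to 0.11 with 1 library left out, and Otc -0.17 to 0.10.

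For ethanol in LbNOX livers genes called were 1, and 0 without the trend, 2 with only the groups compared, 142 without M3 and M8, 6 without M15 too, 282 by DESeq2 and 0 to 28 with 1 library left out. Ass1 was 0.19 with quantile normalization, 0.069 with library-sum scaling and -0.24 to 0.13 with 1 library left out, and Arg1 was 0.023 with quantile normalization.

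For LbNOX after water genes called were 0, and 2 without M3 and M8, 1 without M15 too, 18 by DESeq2 and 0 to 1 with 1 library left out. Nags was -0.011 with library-sum scaling and -0.070 to 0.12 with 1 library left out, and Arg1 -0.0035 to 0.31. For LbNOX after ethanol genes called were 822, and 513 without M3, M8 and M15, 1349 by DESeq2 and 299 to 944 with 1 library left out. Otc was 0.030 with quantile normalization, 0.053 with library-sum scaling, 0.074 without M3, M8 and M15 and -0.27 to 0.074 with 1 library left out. Slc25a15 was 0.078, 0.10, 0.019 and -0.12 to 0.074 under the same settings, and with 1 library left out Ass1 was -0.076 to 0.17 and Nags -0.062 to 0.10.

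For the difference of effects genes called were 227, and 118 with library-sum scaling, 395 without M3 and M8, 633 by DESeq2 and 64 to 403 with 1 library left out. Nags was 0.022 with quantile normalization, 0.17 with library-sum scaling, 0.045 without M3, M8 and M15, 0.0024 by edgeR and -0.11 to 0.085 with 1 library left out. For the averaged effect genes called were 705, and 1282 by DESeq2 and 318 to 825 with 1 library left out, and members called 0 to 1.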
